A study of Mus musculus with 16 samples.

Results

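Intron-retaining transcripts that were measured by many reads were described in the CA1 subfield of the mouse hippocampus. The set held the transcripts whose annotated class (biotype) in the deposited tables was retained_intron and whose estimated count averaged at least 100 over all 16 libraries. It had 60 transcripts of 57 gene symbols, out of 111706 transcripts of all classes and 16152 of the retained_intron class. Gria2, Abcc5 and Cttnbp2 each gave 2 transcripts. The set was selected on the mean count over both genotypes, so the overall level of its members is a description and carries no test. The last transcripts inside the threshold were Iqcb1-003, Epha6-002 and Cttnbp2-005, with mean counts of 102.5, 102.5 and 100.8. The first ones outside it were Srrm2-010, Sez6-005 and Plch2-005, with 99.4, 97.0 and 96.4.

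RNA was sequenced in 8 libraries from mice labelled Fmr1-KO and 8 from wild-type mice (WT) labelled C57BL/6. Every animal served as a yoked control in tests of active place avoidance. The labels used here give no age or sex, and they do not say which cells lack Fmr1 or how the allele was made. Each library carries an animal number and a letter, B or D, with 4 libraries of each letter in each genotype. Some numbers occur with both letters, and the labels do not say whether these are 2 animals, so p-values measure the spread between these libraries. Fmr1 encodes FMRP, an RNA-binding protein of neurons. Summed over its transcripts, Fmr1 RNA stood at 8.44 to 32.0 CPM (counts per TMM-scaled library total) in Fmr1-KO libraries, against 39.6 to 99.7 CPM in WT libraries. The ranges did not overlap and the log2 fold change was -1.41 ± 0.22 (standard error, edgeR adjusted p = 0.0112), so Fmr1 RNA fell but remained detectable.

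Splicing removes introns from a new transcript, and an annotated retained_intron transcript carries sequence that other, coding transcripts of the same gene remove. Such RNAs are commonly held in the nucleus or degraded, and they often lack a complete reading frame. Genes for splicing factors are well known for them. In bulk tissue, the share of counts given to such a transcript depends on how reads were divided among transcripts with shared exons, and incompletely spliced RNA and a stable intron-retaining RNA cannot be told apart. Less RNA per cell and fewer cells of a type cannot be told apart either.

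The structure of the members was read from the GENCODE M21 annotation of GRCm38, in which 56 of the 60 had the length given in the deposited tables. For the other 4, Pisd-011, Gnao1-004, Pou6f1-005 and Abcc5-005, retained introns, own sequence and overlap with other genes were not determined. Of these 56, 35 (62.5%) contained at least 1 whole intron of a coding transcript of their gene, 59 annotated introns in all, some of which overlap. The median length of these introns was 823 bases, and 58 of the 59 began with GT and ended with AG. The exception, in Kcnip2-004, began with GC. Among the other 15468 retained_intron transcripts, 29.0% contained a whole intron and the median intron was 237 bases. Members were longer, with a median of 3488 bases against 849 bases in the others. Longer transcripts collect more reads, and the rule asks for many counts. Among other retained_intron transcripts with a mean count of 10 to 100, 50.7% contained a whole intron. Their median length was 2830 bases and their median intron 394 bases, nearer to the members. Introns of coding transcripts of the same genes that no member retains had a median length of 777 bases. The remaining 21 members contained no whole intron of a coding transcript. Zbtb20-002, Mettl3-016, Sez6-008 and Tmem178b-003 are among them, as is AA465934-003, whose gene has no coding transcript in this annotation. Shank2-003 is listed as protein_coding in GENCODE M21.

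4 short introns are printed whole, because each of them can then be seen entirely. Cpne6-002 and Ncl-002 also contain other retained introns, which are not printed. They lie in transcripts of Cpne6 (2 introns), Ncl and Med14. Cpne6 encodes a copine, a calcium-dependent membrane-binding protein of dendritic spines. Ncl encodes nucleolin, an RNA-binding protein of the nucleolus. Med14 encodes a subunit of the Mediator complex of transcription. The bases are those of the GENCODE M21 transcript (GRCm38), on the strand of the gene, and capitals mark the first and last pair of bases of the intron. The positions are chr14:55513463-55513633 and chr14:55515657-55515727 (plus strand, 171 and 71 bases) for Cpne6, chr1:86352320-86352509 (minus strand, 190 bases) for Ncl and chrX:12706446-12706531 (minus strand, 86 bases) for Med14.
Cpne6-002, intron of 171 bases: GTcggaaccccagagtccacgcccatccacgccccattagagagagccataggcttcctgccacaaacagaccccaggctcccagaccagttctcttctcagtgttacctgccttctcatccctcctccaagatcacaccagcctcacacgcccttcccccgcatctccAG
Cpne6-002, intron of 71 bases: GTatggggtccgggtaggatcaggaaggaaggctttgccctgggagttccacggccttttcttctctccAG
Ncl-002, intron of 190 bases: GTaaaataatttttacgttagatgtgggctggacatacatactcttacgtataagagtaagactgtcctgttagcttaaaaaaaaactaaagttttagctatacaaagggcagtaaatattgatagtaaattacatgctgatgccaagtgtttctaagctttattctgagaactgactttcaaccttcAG
Med14-001, intron of 86 bases: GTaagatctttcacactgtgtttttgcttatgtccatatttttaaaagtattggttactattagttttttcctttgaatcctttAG

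For longer introns of the members that the results turn on, the start of the intron is shown, since the bases at this site pair with the U1 RNA of the spliceosome. Each line gives the last 6 bases of the exon, the first 6 bases of the intron in capitals, and 14 more bases of the intron. The sites belong to Rsrp1 (an arginine- and serine-rich nuclear protein), Sf3b1 (a core subunit of the U2 particle), Srsf5 (an RNA-binding protein that acts in splicing), Gria2 (an AMPA receptor subunit), Neu1 (lysosomal sialidase), Iqcb1 (a protein of primary cilia) and Stk25 (a protein kinase of the Golgi).
Rsrp1-001, chr4:134925433-134926734, plus strand: gtggagGTAAGTgccttcaggaagct
Sf3b1-003, chr1:55014563-55016375, minus strand: cagatgGTAATTctttcccacttttc
Srsf5-005, chr12:80947866-80949094, plus strand: tggcagGTTTGTtgaaatacagtttt
Gria2-007, chr3:80707259-80707698, minus strand: tatgggGTAAGTttttaatgttacag
Neu1-002, chr17:34932829-34934002, plus strand: attcagGTTTCAccctgtggatagga
Iqcb1-003, chr16:36849737-36851184, plus strand: gaacagGTATTAtaaaaataatttgt
Stk25-002, chr1:93626209-93627024, minus strand: tcaaagGTCCTGcggggtgggcttgg
The hexamer GTAAGT began 7 of the 59 introns (11.9%) and GTGAGT began 10 (16.9%), against 9.21% and 14.3% of the 7055 introns held by the other retained_intron transcripts. These are counts of letters at annotated sites, read on the strand of the gene.

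Members differed in how much sequence of their own they had. Over the 56 with matched structure, the median share of 31-base words found in no other annotated transcript was 24.5%. In 11 members that share was above 50%, with the highest in Tmem178b-003 (96.0%), a single-exon transcript that lies mostly outside coding exons. 6 members (Bcan-006, Eno2-003, Sipa1l3-016, Gramd1a-003, Srsf5-005 and Maged1-002) had no such word in GENCODE M21. If the index behind the deposited counts held the same transcripts, their counts rest wholly on how shared reads were divided. That index is not given, and these counts are uncertain. 7 members overlap exons of a gene on the opposite strand (Stk25-002, Pex5l-003, Cttnbp2-005, Gramd1a-003, Fmnl1-006, Zbtb20-002 and Epha6-002). The sources used here do not say whether the libraries kept strand, so for these reads from the partner gene cannot be told apart.

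Library totals ranged from 1480966 to 3275003 estimated counts in 14 libraries, but were 878484 in WT replicate 3 and 515103 in WT replicate 6. Those 2 libraries stood apart in several ways. Protein-coding transcripts took 80.7% and 58.4% of their counts, against 87.6% to 91.8% in the other 14. Summed astrocyte markers reached 5300 CPM in the highest WT library, against 2416 CPM in the highest of the 6 other WT libraries and 1560 to 2500 CPM in Fmr1-KO libraries. All 7 of 7 markers were lower in Fmr1-KO for astrocytes, for oligodendrocytes, for microglia and for endothelium with pericytes, and 5, 7, 7 and 6 of them were lower without those 2 libraries. The median astrocyte sum, however, was higher in Fmr1-KO libraries (2208 CPM) than in WT libraries (1933 CPM with or without those 2). Median sums were lower in Fmr1-KO for oligodendrocytes (380 against 484 CPM), microglia (161 against 200 CPM) and endothelium with pericytes (102 against 153 CPM). The markers of CA1 pyramidal neurons summed to 2761 to 2956 CPM in Fmr1-KO libraries and 2624 to 3082 CPM in WT libraries. The part of these differences in the results on the members was not tested. Many results are also given without the 2 WT libraries, and a result given only with them may still rest on them.

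The share of each library given to the whole retained_intron class did not differ by genotype beyond the spread between libraries. It was 3.06 ± 0.25% in Fmr1-KO libraries and 3.31 ± 0.68% in WT libraries (SD, n = 8 each; two-sided exact permutation test, p = 0.377). Without WT replicates 3 and 6, which held 4.14% and 4.58%, the WT share was 2.96 ± 0.18% (n = 6), and the difference of 0.0963 percentage points had an exact permutation p of 0.440. In TPM, which weights transcripts by length, the class held 4.97% in Fmr1-KO libraries and 3.96% in WT libraries (exact permutation p = 0.0685). The sign of the difference over all libraries thus depends on the unit. By library, the TPM share was 3.30%, 2.70% and 1.38% in WT replicates 3, 5 and 6. It was 4.47% to 5.46% in the other WT libraries, against 4.50% to 5.79% in Fmr1-KO libraries. Within letter B the shares of counts were 2.95% in Fmr1-KO libraries and 3.62% in WT libraries (4 each, exact permutation p = 0.314). WT replicates 3 and 6 both carry letter B, and the other WT libraries of that letter, replicates 1 and 8, held 2.90% and 2.85%. Within letter D they were 3.16% and 3.01% for Fmr1-KO and WT in that order (4 each, exact permutation p = 0.400).

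The class share of counts moved with the library total. Across 16 libraries the correlation with the total was r = -0.93 (Pearson) and rho = -0.82 (Spearman). The permutation p-values were 2e-05, the smallest that 100000 permutations can give, and 6e-05, or 2e-05 and 0.00012 after adjustment over the 2 relations computed. Without the 2 smallest libraries, WT replicates 3 and 6, r was -0.77 and rho -0.73 over 14 libraries. The share also ran against that of protein-coding transcripts (r = -0.89, rho = -0.81, adjusted permutation p of 2e-05 and 0.00032), and there r was -0.73 without the same 2 libraries. The shares of 2 classes in 1 library are parts of 1 total, so the second relation is not independent of the first. Both relations are for shares of counts. In TPM the class held 3.30% and 1.38% in WT replicates 3 and 6, against 2.70% to 5.79% in the other 14 libraries. The relation of the TPM share to the library total was not tested.

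The 60 members alone took 0.414% to 0.671% of the counts of Fmr1-KO libraries, against 0.432% to 0.492% in 6 WT libraries. In WT replicates 3 and 6 they took 0.803% and 1.54%. Measured against all counts of their 57 gene symbols, they held 19.3% to 28.3% in Fmr1-KO libraries (median 21.1%) and 19.9% to 22.2% in 6 WT libraries, with 36.8% in WT replicate 3 and 59.3% in WT replicate 6. The highest Fmr1-KO library was replicate 2, at 28.3%, and the other 7 lay at or below 22.7%. In the plot of shares per library the genotypes overlap apart from those 2 WT libraries.

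**Figure D1:**
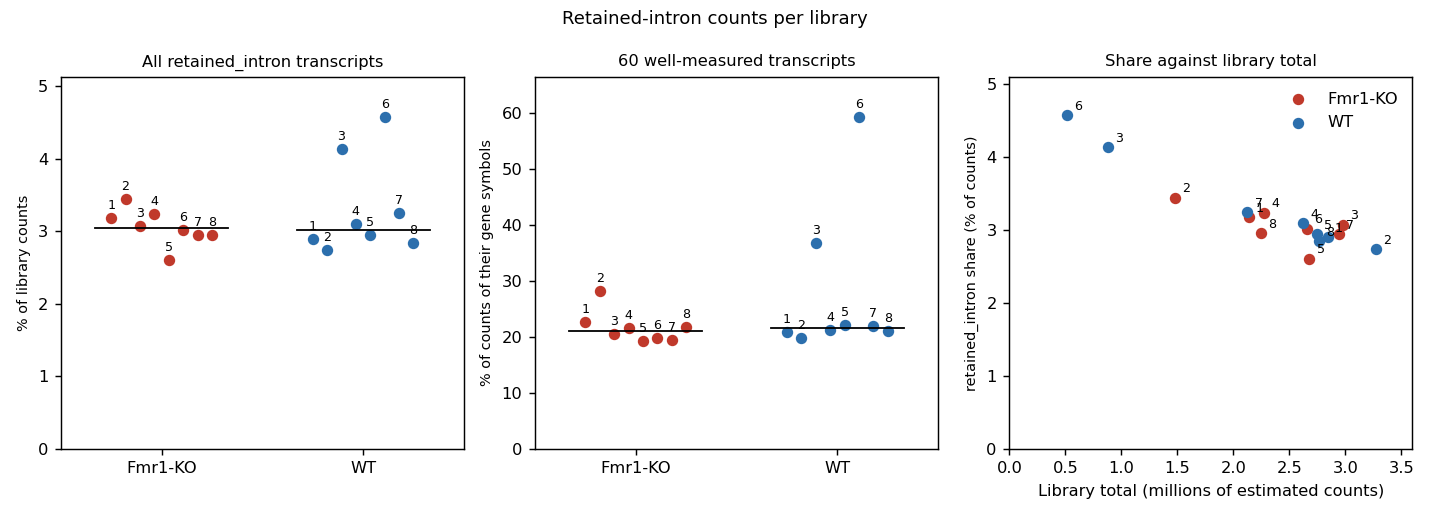
Left and middle, the percent of counts given to all retained_intron transcripts and the percent of their symbols' counts given to the 60 members, by library (points, numbered by replicate; lines are medians), for Fmr1-KO (red) and WT (blue). Right, the class share of counts against the library total: WT replicates 3 and 6 have the smallest totals and the highest shares, 4.14% and 4.58%.

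No member passed the transcript test at an adjusted p of 0.05 (edgeR quasi-likelihood test over 16772 transcripts, of which 1, or 0.00596%, passed). The lowest adjusted p of a member was 0.99986. Without adjustment, 4 members had p under 0.05 with a higher level in Fmr1-KO, where 1.85% of all transcripts did, and 6 had a lower level, where 2.06% did. For comparison, 205 of 4304 protein-coding transcripts with a mean count of at least 100 were higher at this level and 75 were lower. Without WT replicates 3 and 6, 3 members were higher and 3 lower at that level, where 336 and 266 of the same 16772 transcripts were. The median log2 fold change of the 60 was -0.03, against 0.02 over all transcripts tested, with 26 members above 0 and 34 below. No member had every Fmr1-KO library on one side of every WT library, which 0.0238% of all transcripts did. The plot of fold changes shows the estimates with and without the 2 WT libraries, and 15 of the 60 change sign.

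**Figure D2:**
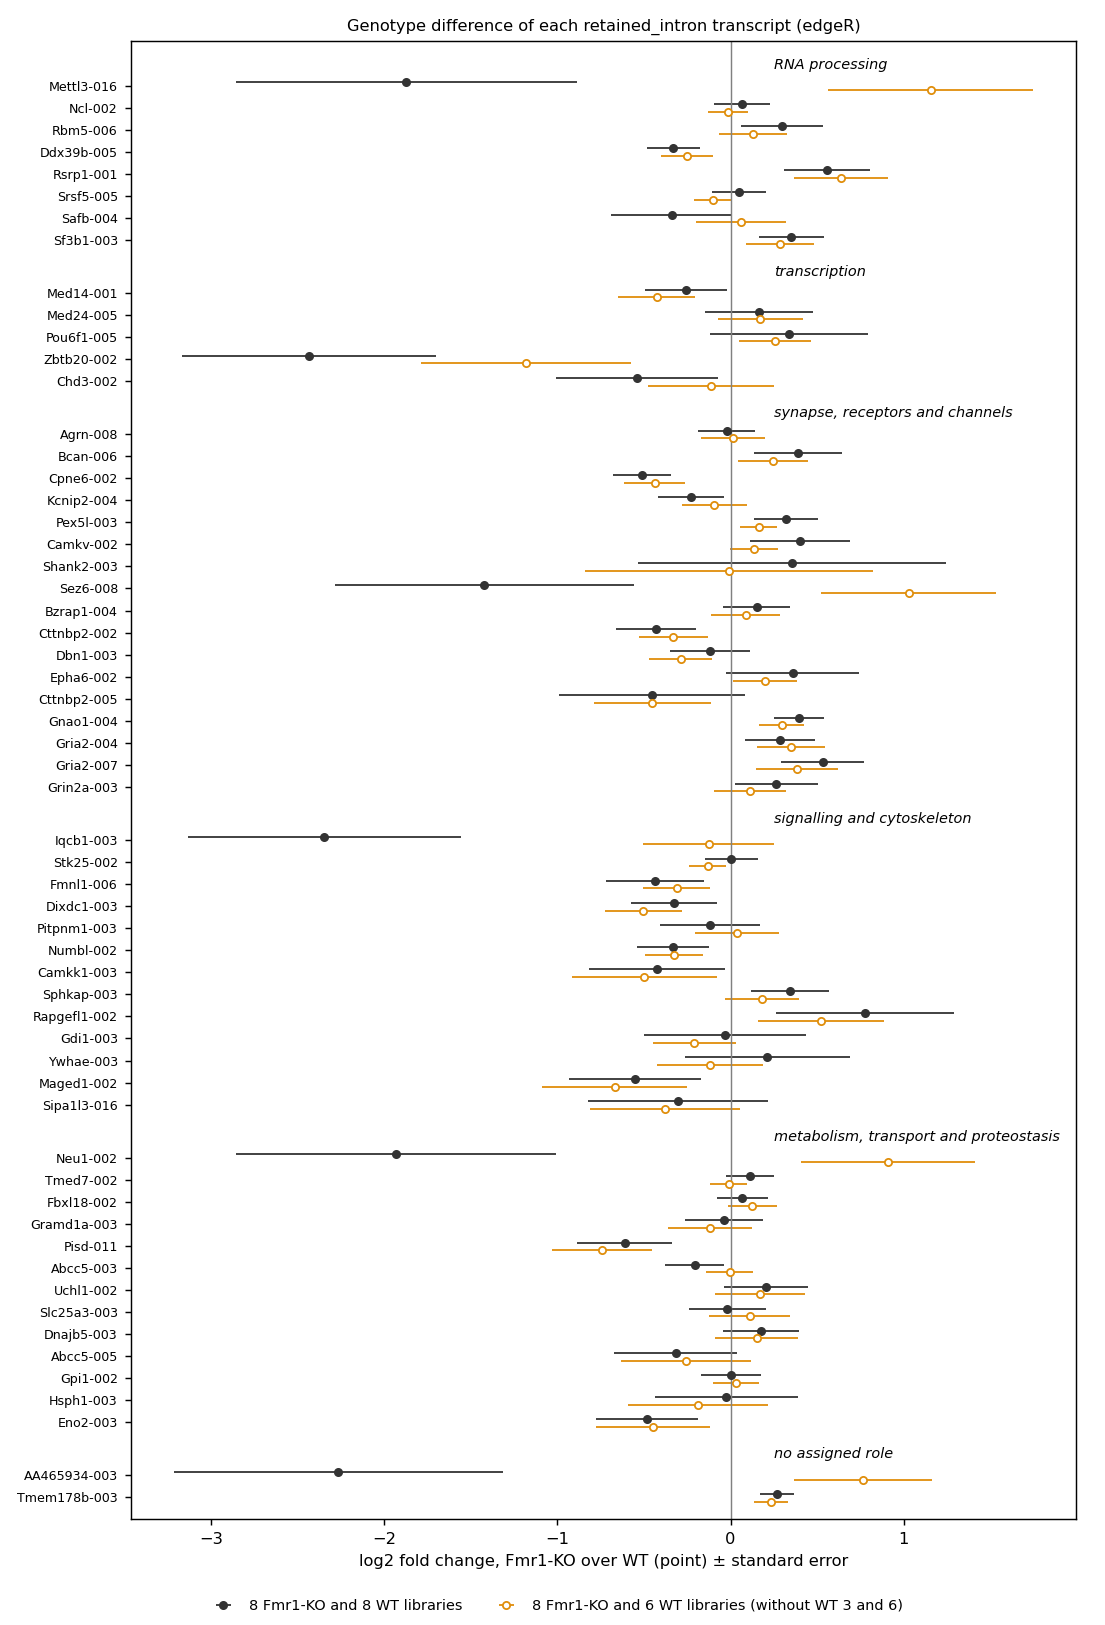
log2 fold change of the members drawn here, Fmr1-KO over WT, with its standard error as bars, from all 16 libraries (black) and without WT replicates 3 and 6 (orange, open), grouped by what the gene does. The widest shifts are those of Neu1-002, Mettl3-016, Sez6-008, AA465934-003, Iqcb1-003 and Zbtb20-002, while most other members lie within 1 unit of 0 under both.

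9 members came from genes that process RNA. Their median log2 fold change was 0.05, 5 were above 0 and 4 below, and none was called. Rsrp1-001 had the highest estimate among them, at 59.1, 107 and 129 CPM (lowest, median, highest) in Fmr1-KO libraries, against 36.5, 73.2 and 110 CPM in WT libraries. The ranges overlapped, with 6 of 8 Fmr1-KO libraries above the WT median, and the log2 fold change was 0.56 ± 0.25 (unadjusted p = 0.0370). It took 45.5% of Rsrp1 counts in Fmr1-KO libraries and 33.2% in WT libraries on average, while Rsrp1 as a whole stood at a log2 fold change of 0.09. Little of its sequence is its own, with 1.42% of its 31-base words found in no other transcript.

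Ddx39b encodes an RNA helicase of splicing and mRNA export. Its transcript Ddx39b-005 stood at 35.1, 40.5 and 57.8 CPM in Fmr1-KO libraries and at 39.7, 54.4 and 67.1 CPM in WT libraries. In 7 of 8 Fmr1-KO libraries it was below the WT median, and the log2 fold change was -0.33 ± 0.15 (unadjusted p = 0.0442; 0.111 without WT replicates 3 and 6). On log2(TPM + 1), where the median of all transcripts was 0.52, it was 0.24.

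Sf3b1-003, with 1 intron of 1813 bases, had 31.5, 52.8 and 81.2 CPM in Fmr1-KO libraries and 31.3, 40.4 and 57.9 CPM in WT libraries, a log2 difference of 0.35 ± 0.19 (unadjusted p = 0.0803). Rbm5-006, from a regulator of alternative splicing, had medians of 81.5 CPM (Fmr1-KO) and 74.1 CPM (WT). Srsf5-005 had medians of 87.3 CPM (Fmr1-KO) and 89.0 CPM (WT), and Ncl-002 had 130 and 128 CPM in that order. Without WT replicates 3 and 6 the log2 fold changes of these 3 were 0.13 ± 0.19, -0.10 ± 0.11 and -0.02 ± 0.11, each within its standard error of 0. Ncl-002 took 51.8% of Ncl counts, so that the transcript with 2 retained introns held more than any other Ncl transcript.

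Among the 5 members from genes of transcription, Zbtb20-002 had the lowest unadjusted p of all 60. Zbtb20 encodes a zinc finger repressor that specifies CA1 neurons. Its transcript stood at 17.9 to 44.4 CPM in the 8 Fmr1-KO libraries and at 19.8 to 43.3 CPM in 5 WT libraries, but at 423, 321 and 607 CPM in WT replicates 3, 5 and 6. The groups coincide apart from those 3 libraries, and the log2 fold change of -2.44 ± 0.74 (unadjusted p = 0.00413) became -1.18 (unadjusted p = 0.0701) without WT replicates 3 and 6. Its share of Zbtb20 counts was 2.76% to 5.17% in Fmr1-KO libraries and 41.9%, 23.8% and 45.1% in the same 3 WT libraries. The same 3 had the highest shares of transcripts of the rRNA class, 0.957%, 1.87% and 3.51% of the library, against 0.0862% to 0.648% in the other 13. Zbtb20-002 shares no 31-base word with annotated rRNA or small RNA, and the part of rRNA in its level was not tested.

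Med14-001 was lower in 7 of 8 Fmr1-KO libraries than the WT median, at medians of 59.1 CPM (Fmr1-KO) and 78.5 CPM (WT), with a log2 fold change of -0.26 ± 0.24 (unadjusted p = 0.298). It held 42.1% of Med14 counts in Fmr1-KO libraries and 50.6% in WT libraries. Its retained intron is the one of 86 bases printed above. Pou6f1-005, from a POU-domain transcription factor, had medians of 59.5 CPM (Fmr1-KO) and 56.6 CPM (WT), and it was listed at 0 in WT replicate 3. The other members of this group came from Med24 and Chd3, a Mediator subunit and a chromatin remodeller.

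The largest group, 17 members, came from genes of synapses, receptors and channels. Their median log2 fold change was 0.26 with all libraries and 0.11 without WT replicates 3 and 6, with 10 members above 0 and 7 below in all libraries. Cpne6-002, which carries 6 annotated introns that partly overlap, stood at 74.5, 112 and 142 CPM in Fmr1-KO libraries and at 104, 161 and 221 CPM in WT libraries. All 8 Fmr1-KO libraries were below the WT median, although the ranges overlapped. The log2 fold change was -0.51 ± 0.17 (unadjusted p = 0.00784), and -0.44 without WT replicates 3 and 6 (unadjusted p = 0.0236). On log2(TPM + 1) it was 0.09, above 0 but below the median of 0.52 over all transcripts. Of Cpne6 counts it took 22.4% in Fmr1-KO libraries and 28.2% in WT libraries, and Cpne6 as a whole had a log2 fold change of -0.18 (unadjusted p = 0.0661).

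Gnao1-004, a transcript of the Go alpha subunit that couples receptors to channels, stood at 63.5, 79.4 and 97.5 CPM in Fmr1-KO libraries and at 43.4, 61.4 and 76.1 CPM in WT libraries. All 8 Fmr1-KO libraries were above the WT median, with a log2 fold change of 0.39 ± 0.14 (unadjusted p = 0.0133; 0.0377 without WT replicates 3 and 6). Its share of Gnao1 counts was 10.6% in Fmr1-KO and 8.58% in WT. Gria2-007 was likewise above the WT median in all 8 Fmr1-KO libraries, at 50.3, 73.8 and 106 CPM, against 31.7, 40.3 and 83.3 CPM in WT libraries. The log2 fold change was 0.53 ± 0.24 (unadjusted p = 0.0392; 0.124 without WT replicates 3 and 6). The second Gria2 transcript, Gria2-004, contains no whole intron and had medians of 117 CPM (Fmr1-KO) and 93.9 CPM (WT). Together they are a small part of Gria2, with 4.80% for Gria2-007 and 8.41% for Gria2-004.

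Pex5l-003, of a protein that guides HCN channels, had 109, 130 and 147 CPM in Fmr1-KO libraries and 37.7, 107 and 137 CPM in WT libraries (log2 fold change 0.32 ± 0.19, unadjusted p = 0.103). Camkv-002, of a kinase-like protein of synapses, had 165, 225 and 308 CPM in Fmr1-KO libraries and 29.4, 201 and 232 CPM in WT libraries. In both, the lowest WT value came from WT replicate 3, and the estimates without replicates 3 and 6 were 0.16 and 0.14. Agrn-008 (agrin) had medians of 142 CPM (Fmr1-KO) and 156 CPM (WT), and Bcan-006 (brevican, of the extracellular matrix) had 110 and 90.8 CPM in that order. Epha6-002 and Cttnbp2-005, of an ephrin receptor and a protein of dendritic spines, lie at the edge of the set and had standard errors of 0.38 and 0.54 around log2 fold changes of 0.36 and -0.45. Epha6-002 stood at 1.74 CPM in WT replicate 3, and leaving out single libraries gave 0.18 to 0.44. Cttnbp2-005 stood at 0 in WT replicate 3 and 114 CPM in WT replicate 6, and leaving out single libraries gave -0.63 to -0.24. Grin2a-003 was the member with the smallest share of its symbol, 3.62% of the counts of this NMDA receptor subunit, and 7 of 8 Fmr1-KO libraries were above the WT median of 41.7 CPM. Shank2-003 was at or near 0 in several libraries of both genotypes and reached 118 CPM (Fmr1-KO) and 107 CPM (WT).

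14 members came from genes of signalling and the cytoskeleton, with a median log2 fold change of -0.32, and -0.26 without WT replicates 3 and 6. In all libraries 10 were below 0 and 4 above, and none was called. Stk25-002 took 64.9% of Stk25 counts and had 146, 181 and 223 CPM in Fmr1-KO libraries, against 88.8, 183 and 243 CPM in WT libraries. Its log2 fold change was 0.00 ± 0.15, so the groups overlapped almost fully. Sphkap-003, of a protein that anchors protein kinase A, had medians of 138 CPM (Fmr1-KO) and 106 CPM (WT), with the lowest value, 52.5 CPM, in WT replicate 3. Fmnl1-006, of a formin that builds actin filaments, had medians of 99.5 CPM (Fmr1-KO) and 118 CPM (WT), with the highest value, 284 CPM, in WT replicate 3.

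Camkk1-003, of the kinase that activates CaM kinases, was below the WT median in all 8 Fmr1-KO libraries, at 3.34, 58.5 and 83.3 CPM, against 33.5, 85.1 and 107 CPM in WT libraries. The ranges overlapped and the estimate was -0.43 ± 0.39 (unadjusted p = 0.293). Maged1-002 had medians of 35.2 CPM (Fmr1-KO) and 52.0 CPM (WT). With all libraries, Rapgefl1-002 had the highest estimate of all members, 0.78 ± 0.51, with medians of 59.5 CPM (Fmr1-KO) and 34.9 CPM (WT) (unadjusted p = 0.148). Rapgefl1-002 was listed at 0 in WT replicate 3, and leaving out single libraries gave 0.59 to 0.99. With standard errors of 0.38 and 0.51, the differences of Maged1-002 and Rapgefl1-002 were not distinguishable from the spread between libraries. Maged1 encodes an adaptor in neurotrophin signalling and Rapgefl1 a protein related to Rap exchange factors.

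Another 13 members came from metabolism, transport and protein quality control, with a median log2 fold change of -0.02. Pisd-011, of the mitochondrial enzyme that makes phosphatidylethanolamine, had 26.7, 67.7 and 94.7 CPM in Fmr1-KO libraries and 64.9, 91.1 and 132 CPM in WT libraries. It was below the WT median in 7 of 8 Fmr1-KO libraries, with a log2 fold change of -0.61 ± 0.27 (unadjusted p = 0.0391; 0.0218 without WT replicates 3 and 6). Its share of Pisd counts was 24.2% to 45.2% in Fmr1-KO libraries and 44.4% to 55.1% in WT libraries, so that the shares overlapped only at their edge. The neuronal enolase transcript Eno2-003 had medians of 58.2 CPM (Fmr1-KO) and 81.1 CPM (WT). Tmed7-002, of a cargo receptor between endoplasmic reticulum and Golgi, took 60.8% of its symbol and had 78.2 CPM (Fmr1-KO) and 76.3 CPM (WT). Fbxl18-002, of an F-box protein, took 56.5% and had 99.2 and 86.5 CPM in that order.

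Tmem178b-003 had the smallest relative spread of the 60, with a coefficient of variation of 15% over 16 libraries, where the median member had 35.1%. It stood at 118, 139 and 176 CPM in Fmr1-KO libraries and at 105, 113 and 135 CPM in WT libraries, and all 8 Fmr1-KO libraries were above the WT median. The log2 fold change was 0.27 ± 0.10 (unadjusted p = 0.0136; 0.0308 without WT replicates 3 and 6). It took 65.1% of Tmem178b counts in Fmr1-KO libraries and 66.2% in WT libraries, so the share did not move with the level. The symbol as a whole had a log2 fold change of 0.28 (unadjusted p = 0.0113, adjusted p = 0.576).

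5 more members, like Zbtb20-002, were far higher in a few libraries than in the rest. Neu1-002 had 1292 CPM in Fmr1-KO replicate 2 and 160 to 432 CPM in the other 7 Fmr1-KO libraries, against 8408 and 1643 CPM in WT replicates 6 and 3 and 100 to 343 CPM in the other 6 WT libraries. Mettl3-016, of the methyltransferase that writes N6-methyladenosine, had 1113 CPM in Fmr1-KO replicate 2 and 112 to 356 CPM in the other Fmr1-KO libraries, against 6392 and 1259 CPM in WT replicates 6 and 3 and 55 to 263 CPM in the rest. In every library the level of Mettl3-016 was 0.549 to 0.861 times that of Neu1-002, so both were high and low in the same libraries. In WT replicate 6 these 2 transcripts made up 60.3% of all counts of the 60 members.

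Sez6-008, of a seizure-related membrane protein of dendrites, was highest in the same libraries, at 296 CPM in Fmr1-KO replicate 2, against 291 and 1368 CPM in WT replicates 3 and 6. AA465934-003, to which no function is assigned here, was at 33.9 to 197 CPM in Fmr1-KO libraries and at 318 and 3601 CPM in WT replicates 3 and 6, with 31.5 to 96.1 CPM in the other WT libraries. Iqcb1-003 was at 13.5 to 63.9 CPM in Fmr1-KO libraries and at 283 and 890 CPM in WT replicates 3 and 6, with 15.7 to 75.3 CPM in the other WT libraries. The fold changes of these transcripts differ with and without those WT libraries. With all 16 libraries, the log2 fold change was -1.94 for Neu1-002, -1.87 for Mettl3-016, -1.42 for Sez6-008, -2.27 for AA465934-003 and -2.35 for Iqcb1-003, with standard errors of 0.79 to 0.99. Without WT replicates 3 and 6 it was 0.91, 1.16, 1.03, 0.77 and -0.13 in the same order, so that 4 of the 5 changed sign, and none was called either way.

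The misc_RNA class, which holds 7SL and other small RNAs, was high in the libraries in which Neu1-002 was high. It took 0.180% of Fmr1-KO replicate 2 and 0.0298% to 0.0750% of the other Fmr1-KO libraries, against 0.246% and 0.798% of WT replicates 3 and 6 and 0.0208% to 0.0705% of the other WT libraries. These libraries also had the smallest totals, 1480966 (Fmr1-KO replicate 2), 878484 and 515103 counts (WT replicates 3 and 6). The lincRNA class was highest there too, at 2.75%, 4.32% and 10.8% in the same order, against 2.59% in Fmr1-KO replicate 1, the next highest. Neu1-002, Mettl3-016, AA465934-003 and Iqcb1-003 share no 31-base word with annotated rRNA or small RNA, while Sez6-008 shares 3. However, 31-base words of Mettl3-016 occur in transcripts of 1122 other genes, and those of Sez6-008, Iqcb1-003 and AA465934-003 in 761, 250 and 228. For Neu1-002 the number is 2. The part of the library total, of the small RNAs or other RNA classes, or of shared sequence in these levels was not tested.

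**Figure D3:**
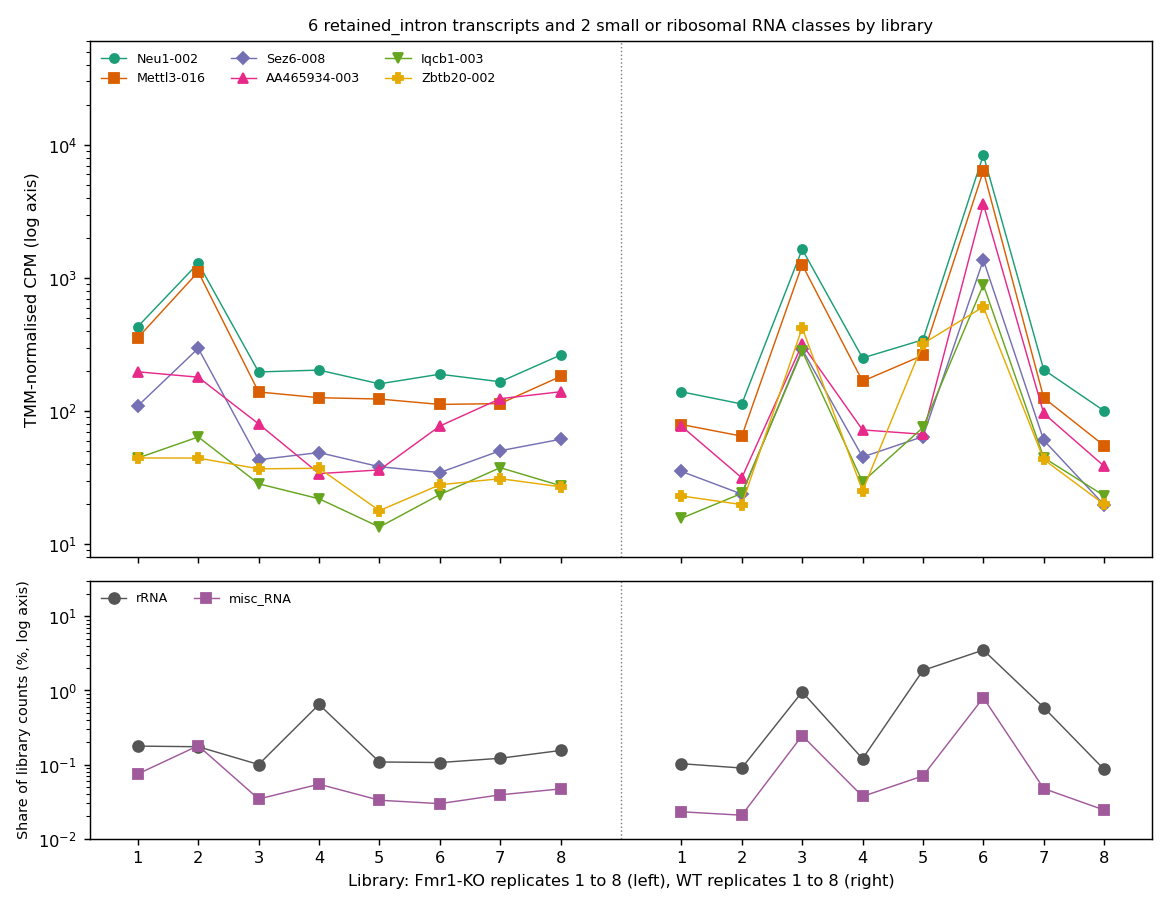
Top, the level of 6 members in each library (TMM-normalised CPM, log axis), Fmr1-KO replicates 1 to 8 left of WT replicates 1 to 8. Bottom, the percent of library counts in the rRNA and misc_RNA classes (log axis). Neu1-002, Mettl3-016 and Sez6-008 peak in Fmr1-KO replicate 2 and WT replicates 3 and 6, as misc_RNA does, and Zbtb20-002 peaks in WT replicates 3, 5 and 6, where rRNA is highest.

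How much of its gene a member accounts for differed widely. The mean share of the counts of the symbol ran from 3.62% (Grin2a-003) to 99.2% (AA465934-003), with a median of 24.4%. 11 members took more than 50%, 23 took 20% to 50% and 26 took less than 20%. 13 members were the transcript with the most counts of their symbol and 24 were the second. The 8 highest shares were those of AA465934-003 (99.2%), Neu1-002 (98.3%), Mettl3-016 (89.9%), Iqcb1-003 (68.5%), Tmem178b-003 (65.6%), Stk25-002 (64.9%), Tmed7-002 (60.8%) and Fbxl18-002 (56.5%). For these 8 symbols, a gene-level value summed over transcripts is for the most part the value of a transcript annotated as intron-retaining.

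Counts favour long transcripts, and per length the shares were smaller. In TPM, which corrects for length within a library, 5 members took more than 50% of their symbol and the median share was 19.6%. The share of Stk25-002 was 36.6% in TPM, that of Tmem178b-003 36.6% and that of Tmed7-002 18.7%. Ncl-002 is a counterexample, with 65.7% in TPM. Over the members, the median library level ran from 11.7 TPM (Shank2-003) to 567.5 TPM (AA465934-003, the shortest member at 471 bases), with a median of 30.6 TPM.

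**Figure D4:**
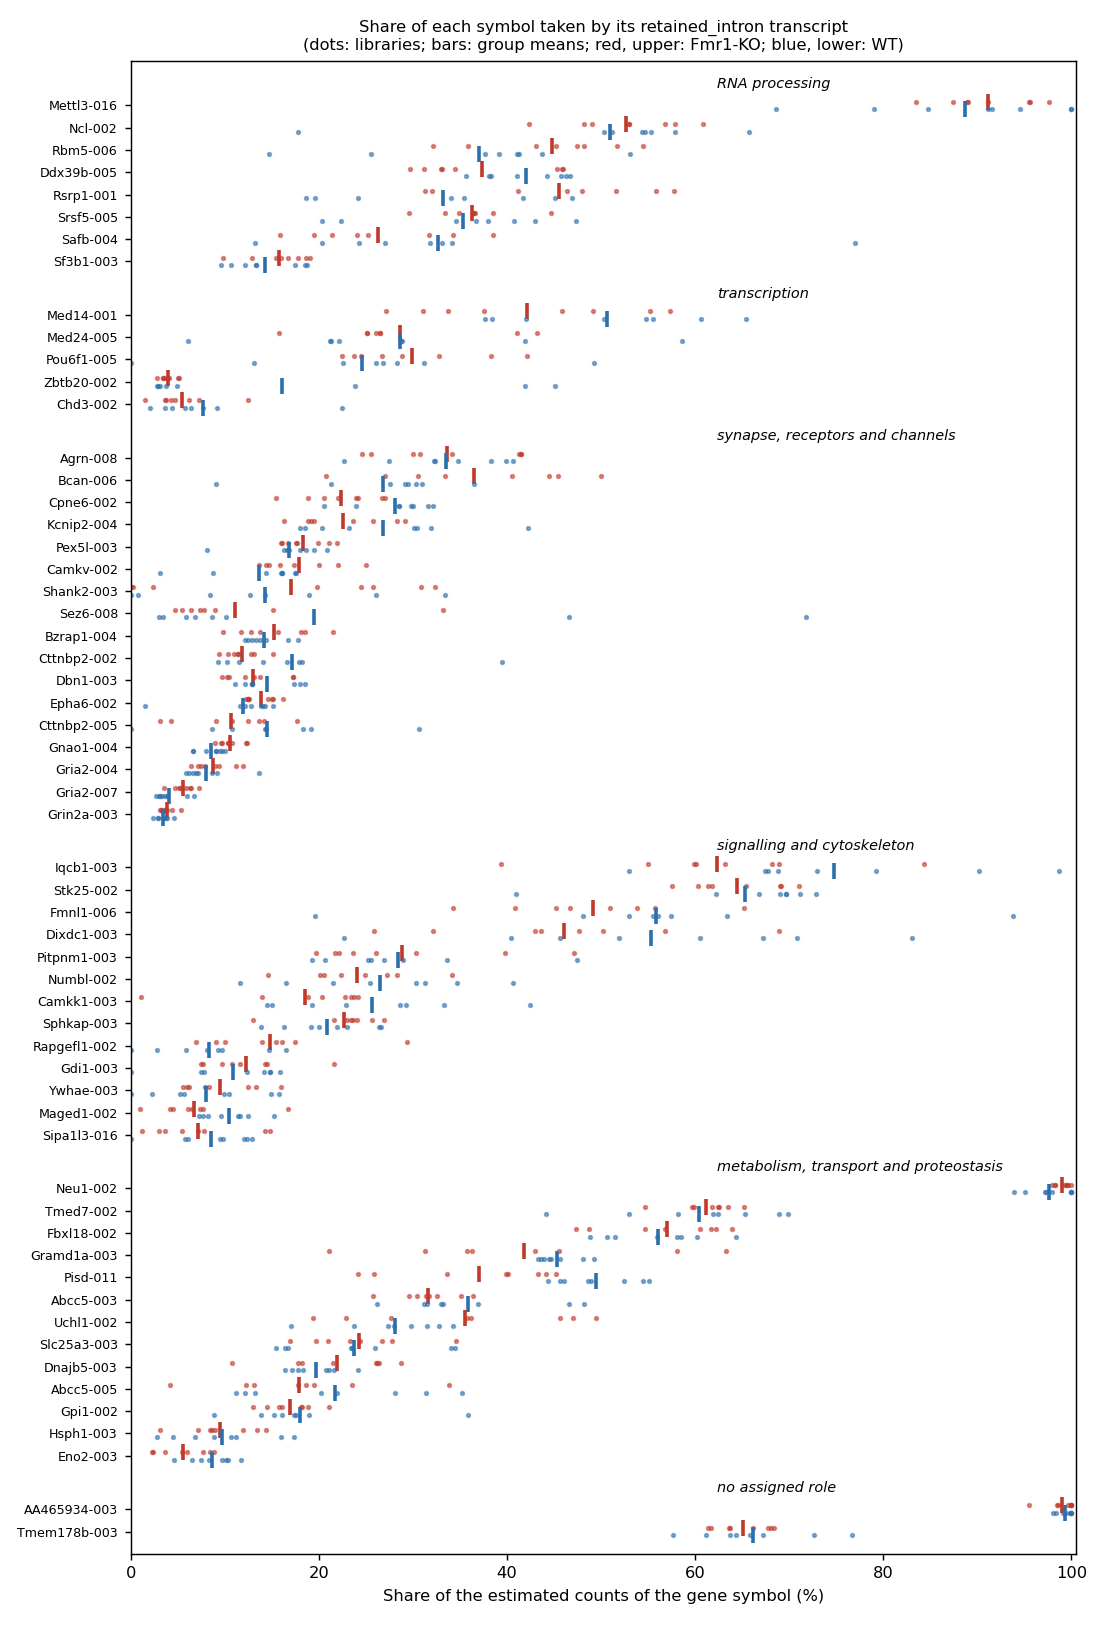
Percent of the estimated counts of its gene symbol taken by the members drawn here, by library (dots), with group means as bars, Fmr1-KO (red) above WT (blue), grouped by what the gene does. Shares run from a mean of 3.62% for Grin2a-003 to 99.2% for AA465934-003, and the genotypes overlap for every member drawn.

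Whether genotype moved the choice of the transcript annotated as intron-retaining within its gene was tested in 2 ways, and neither called a member. In the usage test (edgeR diffSpliceDGE, 9570 transcripts, of which 2, or 0.0209%, passed), 58 members were tested and the lowest adjusted p was 0.492, that of Zbtb20-002. Its usage was lower in Fmr1-KO, with a log2 value of -1.60 relative to the rest of the symbol, and its share was high in WT replicates 3, 5 and 6. It was the only member with unadjusted p under 0.05 in this test, where 0.794% of all transcripts were lower and 0.439% higher. With transcripts required to reach 1 CPM in 8 libraries it passed (adjusted p = 0.00718), and under the other settings tried for this test it did not.

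In the test of shares (limma on the log ratio of the transcript to the rest of its symbol, 13835 transcripts, of which 2, or 0.0145%, passed), all 60 were tested and the lowest adjusted p was 0.971. 2 members had lower shares in Fmr1-KO at unadjusted p under 0.05, where 1.87% of all transcripts did, among them Pisd-011 (unadjusted p = 0.0444), and no member had a higher share at that level, where 2.71% did. The 57 gene symbols themselves held no call (11515 genes tested, of which 2, or 0.0174%, passed), with 3 higher and 5 lower at unadjusted p under 0.05, where 3.61% and 4.28% of all genes were. In simulated data, the level of some tested transcripts was changed, which shifts usage and share by no more than the level. They were drawn from symbols with at least 2 tested transcripts, and transcripts of the lowest levels were left out. The usage and share tests recovered 0% of such changes of 2-fold. The simulated transcripts were not the members, so the size of shift that these tests detect in the members was not tested.

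Of 89 splicing factors and their kinases, all tested as genes, none passed, with 8 higher and 2 lower at unadjusted p under 0.05, where 3.61% of all 11515 genes were higher and 4.28% lower. Their median log2 fold change was 0.04, against -0.01 over all genes. The 3 with the smallest p were Prpf8, Rbfox1 and Luc7l, with log2 fold changes of 0.39, 0.25 and 0.31 and adjusted p of 0.506, 0.515 and 0.590 (edgeR). 6 of these genes gave a member, among them Ddx39b, Rbm5, Rsrp1, Sf3b1 and Srsf5. Over all 71 of their retained_intron transcripts tested, the median was 0.02 and none was called. At unadjusted p under 0.05, 1 was higher and 2 were lower, where 1.85% and 2.06% of all transcripts were. Of 42 tested genes known for detained introns, none passed, with 2 higher and 1 lower at the same level, and the smallest p-values were those of Malat1, Luc7l and Hnrnph1. Their 37 retained_intron transcripts had a median of -0.08.

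Of 23 tested genes of nuclear RNA export, exon junctions and decay, none passed either, with 1 higher at the same level (Casc3, log2 fold change 0.24, adjusted p = 0.624) and none lower. Of 91 tested genes whose mRNA was reported to be bound by FMRP, none passed, with 16 higher and 4 lower at unadjusted p under 0.05, where 3.61% and 4.28% of all genes were, and a median of 0.11. Only Chd3 and Grin2a of that list gave a member. The 57 retained_intron transcripts of that list had a median of 0.10. At unadjusted p under 0.05, 1 was higher and 1 lower, where 1.85% and 2.06% of all transcripts were. The remaining 5 lists (synaptic proteins, ion channels and pumps, cytoskeleton and motors, chromatin and transcription, and ribosome and translation) had no called gene and no called retained_intron transcript, and their median gene log2 fold changes were 0.07, 0.10, 0.07, 0.07 and -0.17.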

How the data were processed

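Per the labels' protocols, CA1 RNA was sequenced on an Illumina HiSeq. The authors deposited, per library, kallisto estimated counts and TPM for each transcript, and FastQC, cutadapt, kallisto and DESeq2 are named in the submitters' processing notes. No source used here gives versions, index, build or library preparation. From the deposited values, estimated counts were rounded and tested with edgeR 4.0.16 (quasi-likelihood, TMM, filterByExpr with a minimum count of 10; diffSpliceDGE for usage). Shares were tested with limma 3.58.1 on log ratios with a pseudocount of 0.5, and library shares with exact permutation tests over 12870 splits. R 4.3.3, Python 3.11.15, SciPy 1.17.1 and pandas 2.3.3 were used, with DESeq2 1.42.0 as an alternative. Adjusted p-values are Benjamini-Hochberg values over all features tested. Structure and sequence came from GENCODE M21, joined by transcript ID. The members, gene lists and roles were chosen with earlier results of these data known. Tests planned for the members' own library shares are not given, since counts chose the members. In simulated data, the transcript test recovered 22.2%, 54.4% and 84.6% of changes in transcript level of log2 size 1, 2 and 4 (14658 transcripts). Of the same changes in level, the usage test recovered 0%, 17.3% and 47.8% (7440 transcripts), and the share test 0%, 23.9% and 56.7% (9570 transcripts).

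The text names the members with the largest mean count, the smallest p in each direction of the transcript and usage tests, the largest share of their symbol, or a place in the lists of splicing and detained introns, and those at the threshold. Gria2-004, Grin2a-003, Shank2-003, Med14-001 and Kcnip2-004 were named after their values were seen. Some members are counted in the summaries but not reported by name here.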

Additional observations from a re-analysis of the deposited data

Results flagged for a closer look

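Within each genotype, 76 groups of 8 libraries were examined for a lowest or highest value that lies far from the rest by Dixon's criterion, and 17 values did. Chance flags about 1 in 20 groups. Of the 17, 9 were in WT replicate 6, 2 in WT replicate 3 and 5 in Fmr1-KO replicate 2.

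The members took 0.671% of the counts of Fmr1-KO replicate 2 and 1.54% of those of WT replicate 6. They took 28.3% of the counts of their own symbols in Fmr1-KO replicate 2 and 59.3% in WT replicate 6. Neu1-002 stood at 1292 CPM in Fmr1-KO replicate 2 and 8408 CPM in WT replicate 6. Mettl3-016 stood at 1113 CPM in Fmr1-KO replicate 2 and 6392 CPM in WT replicate 6. Sez6-008 stood at 296 CPM in Fmr1-KO replicate 2 and 1368 CPM in WT replicate 6. AA465934-003 reached 3601 CPM and Iqcb1-003 reached 890 CPM in WT replicate 6.

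Low values in WT replicate 6 were those of Ncl-002 (52.4 CPM) and Bcan-006 (20.8 CPM). In WT replicate 3, Fmnl1-006 was high at 284 CPM and Epha6-002 was low at 1.74 CPM. Srsf5-005 was high in Fmr1-KO replicate 8, at 113 CPM.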

How the results depend on the processing

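Of 937 values of the 35 named members under alternatives, 59 had the opposite sign and 1 passed the adjusted threshold, the usage of Zbtb20-002. The cause was not tested. No paired analysis was possible because the replicate numbers follow accession order and pair no libraries across genotypes.

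The difference in the class share was 0.0963 without WT replicates 3 and 6, 0.158 in letter D and 1.004 in TPM, and -0.335 to -0.0716 leaving out single libraries. Called transcripts numbered 15 with DESeq2 (no member), 0 on both TPM scales and 1 to 2 leaving out single libraries. Usage calls numbered 5 without WT replicates 3 and 6, 4 with the filter of 1 CPM in 8 libraries and 2 to 4 leaving out single libraries. Share calls numbered 1 with a pseudocount of 5, 0 in TPM and 0 with a mean count of at least 100. Gene calls numbered 8 with DESeq2, 5 with no filter and 7 with limma-voom. Members higher at unadjusted p under 0.05 numbered 1 with no filter and 2 to 5 leaving out single libraries. Members lower numbered 3 without WT replicates 3 and 6, 0 on both TPM scales and 4 to 8 leaving out single libraries. Apart from the setting without WT replicates 3 and 6, the matching counts over all transcripts are not given here.

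Without WT replicates 3 and 6, log2 fold changes were 0.91 for Neu1-002, 1.16 for Mettl3-016, -0.13 for Stk25-002, 0.016 for Agrn-008, -0.015 for Ncl-002, 0.77 for AA465934-003, -0.10 for Srsf5-005, -0.011 for Tmed7-002 and 1.03 for Sez6-008. With limma-voom they were 0.27 for Neu1-002, 0.49 for Mettl3-016, -0.11 for Stk25-002, 0.0031 for Agrn-008, 0.33 for AA465934-003, -0.067 for Srsf5-005, -0.0054 for Tmed7-002 and 0.49 for Sez6-008. DESeq2 gave -0.016 for Stk25-002 and 0.088 for AA465934-003. DESeq2 size factors gave -0.0065 for Stk25-002, library totals 0.021 for Agrn-008 and no filter 0.0051 for Agrn-008.

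TPM scales moved the median of all transcripts to 0.52 (pseudocount 1) and 0.66 (pseudocount 0.1), against 0.02, and that of the members to 0.51 and 0.59. With a pseudocount of 1 and of 0.1, in that order, values were 0.14 and 0.14 for Neu1-002, 0.27 and 0.27 for Mettl3-016, 0.51 and 0.55 for Agrn-008, 0.088 and 0.10 for Cpne6-002, 0.16 and 0.16 for AA465934-003, 0.24 and 0.28 for Fmnl1-006, 0.34 and 0.35 for Sez6-008, 0.24 and 0.26 for Ddx39b-005, and 0.32 and 0.71 for Cttnbp2-005. All of these except Cttnbp2-005 with a pseudocount of 0.1 lay below the median of all transcripts on their scale.

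Leaving out single libraries gave -0.0927 to 0.086 for Stk25-002, -0.101 to 0.0537 for Agrn-008, -0.031 to 0.129 for Ncl-002, -2.43 to 0.15 for AA465934-003, -0.0297 to 0.127 for Srsf5-005 and -2.04 to 0.17 for Sez6-008. For AA465934-003 and Sez6-008, the value above 0 came without WT replicate 6. Standard errors of the members' log2 fold changes ran from 0.10 to 0.99, with a median of 0.25, and the highest was that of Mettl3-016. Whether they follow depth was not tested.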
